A study of Homo sapiens with 3 samples.

Results

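The MYC, MAX and MXD network was followed through RNA-seq of HepG2 cells, a human hepatocellular carcinoma line. The genes were taken by symbol: MYC, MYCN, MAX, MXD1, MXI1, MXD3, MXD4, MNT and MGA, 9 of the 25270 gene symbols in the deposited tables. All 9 symbols were listed in each of the 3 libraries. The first library, HepG2/wild, came from untreated parental cells. The second, HepG2/metR, was labelled as HepG2 cells selected for surviving exposure to metformin, an inhibitor of respiratory complex I, for more than 5 months. The third, HepG2/metR+oxamate, came from the same resistant cells after 24 h with 40 mM oxamate, which blocks lactate dehydrogenase. The labels give a single serum-supplemented medium for all cultures. The sources used here do not state whether HepG2/metR is a single clone or whether metformin was present when RNA was taken. Each condition has 1 library (n = 1), so no difference has a replicate error or a test, and a fold threshold is the only description of size.

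MYC is a helix-loop-helix leucine zipper transcription factor that binds DNA only as a dimer with MAX, mainly at the sequence CACGTG, called an E-box. It is known for raising genes of ribosome assembly, nucleotide and polyamine synthesis and cell growth, and it is often highly expressed in liver cancer. MXD1, MXI1, MXD3, MXD4 and MNT also pair with MAX at E-boxes but bring the SIN3-HDAC co-repressor, and MGA, a very large MAX partner, is the scaffold of a repressive Polycomb complex. The network is thus a competition for MAX. An mRNA level does not show which dimers formed.

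Windows of 250 bases upstream of each RefSeq start (GRCh38.p14) were matched for 8 of the 9 genes, 13 windows in all, MYC being the other gene. They were searched for CACGTG, which reads the same on both strands. MXD4 and MNT held an E-box, 2 of the 8 genes, against 7.73% of the 27305 genes with a window and 11.3% of the 9101 such genes expressed here. A related sequence, CACGCG on either strand, was in 1 of the 3 windows of MGA and in no other gene of the network. That is 1 of the 8 genes, against 11.5% of all genes with a window and 19.9% of such genes expressed here. The windows of MXD4 and MNT are shown for their E-box, in capitals, and those of MXD1 and MXD3 because these paralogs of MXD4 had the widest fall and rise in HepG2/metR cells. A match describes these letters and does not show binding.
MXD4, chr4:2262110-2262359, minus strand: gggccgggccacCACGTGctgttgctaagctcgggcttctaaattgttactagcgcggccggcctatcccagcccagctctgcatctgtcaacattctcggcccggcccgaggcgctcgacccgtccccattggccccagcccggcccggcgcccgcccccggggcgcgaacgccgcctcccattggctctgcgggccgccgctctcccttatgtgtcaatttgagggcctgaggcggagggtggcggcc
MNT, chr17:2401061-2401310, minus strand: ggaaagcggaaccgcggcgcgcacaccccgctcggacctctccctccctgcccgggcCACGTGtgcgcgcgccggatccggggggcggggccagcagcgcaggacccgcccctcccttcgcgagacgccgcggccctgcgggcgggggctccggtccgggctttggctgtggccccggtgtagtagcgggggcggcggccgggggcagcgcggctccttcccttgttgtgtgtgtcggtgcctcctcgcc
MXD1, chr2:69914859-69915108, plus strand: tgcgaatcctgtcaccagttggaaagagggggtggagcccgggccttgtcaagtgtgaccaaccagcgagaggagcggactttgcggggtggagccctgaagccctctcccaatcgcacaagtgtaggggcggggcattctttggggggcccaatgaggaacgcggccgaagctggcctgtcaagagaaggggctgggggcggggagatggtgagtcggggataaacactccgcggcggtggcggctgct
MXD3, chr5:177312753-177313002, minus strand: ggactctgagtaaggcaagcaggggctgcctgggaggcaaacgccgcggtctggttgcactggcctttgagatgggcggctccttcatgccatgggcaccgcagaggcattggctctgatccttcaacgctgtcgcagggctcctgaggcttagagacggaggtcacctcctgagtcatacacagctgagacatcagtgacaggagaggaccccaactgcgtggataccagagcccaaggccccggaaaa

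Levels are given as FPKM, fragments scaled by transcript length and by mapped fragments in the library, back-transformed from deposited values of log2(FPKM + 1). FPKM is per length, so genes can be set side by side within a library. Back-transformed values summed to between 473773 and 562382 FPKM per library. The number of reads is unknown, but the smallest values give the HepG2/metR and oxamate-treated libraries 1.21 and 1.24 times the depth of the parental library. Over the libraries 12210 genes had a mean of at least 1 FPKM and were kept. Of the 9 network genes 8 were kept, and these 8 were at 1 FPKM or more in every library. MYCN was listed at 0 in all 3 libraries and has no change to report.

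The cell identity named in the labels was checked first, and the markers went against a liver identity in both libraries labelled HepG2/metR. Of 13 hepatocyte markers, 13 were at 1 FPKM or more in HepG2/wild, with a sum of 34705 FPKM, and 11 were under 1 FPKM in HepG2/metR and in the oxamate-treated library, with sums of 15.0 and 12.2 FPKM. ALB, which encodes albumin, was listed at 9206, 0.747 and 0.617 FPKM, while APOA1, TTR and FGA were at 0 in HepG2/metR and TTR was also at 0 with oxamate. Of 9 mesenchymal markers the sums were 1573, 2227 and 1673 FPKM, and the members went both ways. VIM was listed at 1.23, 1576 and 1140 FPKM and SPARC at 27.4, 552 and 376. SNAI2, at 0.0431, 6.48 and 12.6 FPKM, TWIST1, at 0, 3.29 and 3.91, and ZEB1, at 5.30, 9.30 and 10.1, were also higher in both HepG2/metR libraries. FN1, most of the HepG2/wild sum, was listed at 1503, 45.7 and 93.7 FPKM, while CDH2 was level at 35.2, 33.4 and 36.1 and COL1A1 and COL1A2 were lower in both HepG2/metR libraries. The sums of 5 epithelial markers were 2006, 1696 and 1280 FPKM, most of it from the keratins KRT8, at 1080, 897 and 664 FPKM, and KRT18, at 605, 787 and 606. CDH1, EPCAM and KRT19 were lower in both HepG2/metR libraries, the first pair under 1 FPKM. Among the immune markers, PTPRC and CD3E were under 1 FPKM in every library, and LYZ was listed at 3415, 0 and 0.230. Whether the HepG2/metR culture descends from HepG2 was not tested here. Every difference between HepG2/metR and HepG2/wild given here stands beside this doubt and a near absence of liver markers, and metformin selection cannot be told apart from any other difference between these cultures. In the oxamate comparison the hepatocyte markers were near absent on both sides.

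MYC mRNA was at almost the same level in parental and HepG2/metR cells and lower after oxamate. It was listed at 79.3 FPKM in HepG2/wild, 74.7 in HepG2/metR and 46.7 in HepG2/metR+oxamate. These levels exceeded those of 91.2%, 91.0% and 87.2% of the genes kept, so MYC was a high transcript in all conditions. The log2 change was -0.09 in HepG2/metR, a size that 8.03% of genes kept fell short of, and -0.67 with oxamate, a size that 94.7% fell short of. On the FPKM scale the oxamate-treated library was 1.601-fold lower. A fall of 1.5-fold, the size the study used for oxamate, is 0.58 on the log2 scale. When each library was scaled to the same total FPKM the fall was 0.50 and no longer passed. That scaling moved the median of all genes kept to 0.17, and relative to that median MYC was at -0.66, against -0.69 relative to a median of 0.02 in the values as deposited.

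MAX, the obligate partner of MYC and a partner of every repressor of the network, was the second most abundant member in each library. It was listed at 23.9 FPKM in parental cells, 25.9 in HepG2/metR cells and 20.4 with oxamate. Neither change passed its threshold, with log2 changes of 0.11 and -0.33. The ratio of MYC to MAX mRNA was 3.32 in HepG2/wild, 2.89 in HepG2/metR and 2.28 in the oxamate-treated library. MYCL, the remaining MYC paralog, was listed at 0.460, 0.223 and 0.161 FPKM, so MYC was the only MYC-family mRNA above 1 FPKM in these libraries. The MAX gene overlaps FNTB on the opposite strand, and without a stated strand setting reads of overlapping genes cannot be told apart. FNTB, looked up after the MAX values had been seen, was listed at 8.37, 2.98 and 2.54 FPKM.

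**Figure D1:**
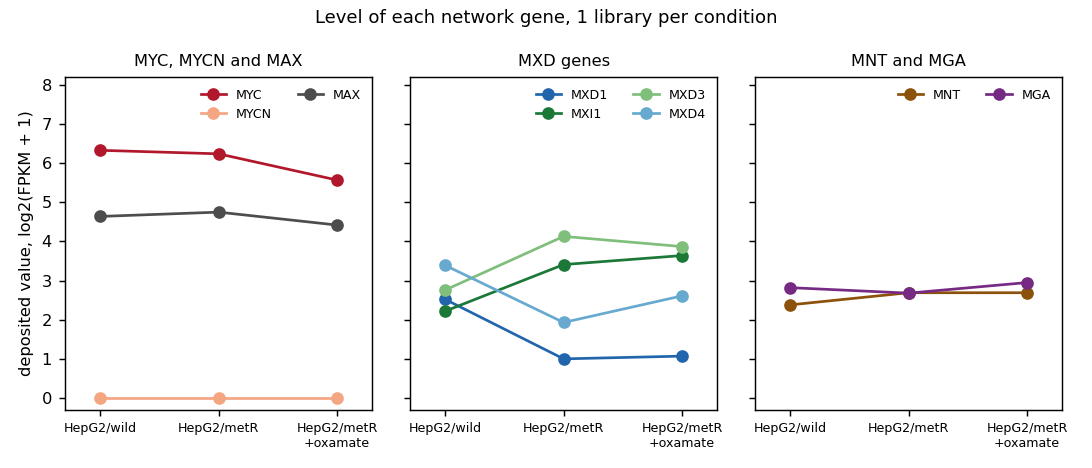
The deposited log2(FPKM + 1) value of each network gene (y axis) in the 3 libraries (x axis), 1 point per library with no error bar because each condition has 1 library. MYC drops between HepG2/metR (6.24) and oxamate (5.57), and among the MXD genes MXD1 and MXD4 go down while MXI1 and MXD3 go up from HepG2/wild to HepG2/metR.

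The MXD genes changed in opposite directions in HepG2/metR cells. All 4 passed the 2-fold threshold of the study for this comparison, 2 higher and 2 lower, and none of the other 4 genes kept did. Among all genes kept, 16.6% passed it upward and 17.6% downward, or 34.1% in either direction, against 4 of the 8 network genes. At 1.5-fold the same 4 network genes passed, where 26.7% of genes kept were higher and 27% lower, or 53.8% in either direction. MXD1, a repressor known from differentiating cells, was listed at 4.74 FPKM in HepG2/wild, 1.002 in HepG2/metR and 1.11 with oxamate. MXD4, also known from differentiating cells, was listed at 9.46, 2.81 and 5.12 FPKM in the same order. Parental cells thus held the highest level of both genes. Their log2 changes in HepG2/metR were -1.52 and -1.46, or 4.73-fold and 3.37-fold lower on the FPKM scale.

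MXD3 and MXI1 had the opposite course. MXD3, a family member known from proliferating cells in S phase, was listed at 5.75 FPKM in HepG2/wild, 16.5 in HepG2/metR and 13.6 with oxamate. MXI1, a broadly expressed MXD gene, was listed at 3.67, 9.60 and 11.5 FPKM. Both were lowest in parental cells. The log2 changes in HepG2/metR were 1.38 for MXD3 and 1.18 for MXI1, or 2.87-fold and 2.61-fold higher on the FPKM scale. MXD3 overlaps PRELID1, a mitochondrial lipid transfer gene on the opposite strand, which was listed at 106, 121 and 75.4 FPKM with a log2 change of 0.19 in HepG2/metR. The part of PRELID1 reads in the MXD3 value was not tested. MXI1 has 3 RefSeq starts with a window of its own, and the deposited value is 1 number per symbol, so its isoforms are not separated.

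As a result the summed MXD mRNA moved less than its parts. The 4 genes summed to 23.6 FPKM in HepG2/wild, 29.9 in HepG2/metR and 31.3 in HepG2/metR+oxamate. MXD1 and MXD4 together fell from 14.2 to 3.81 FPKM and stood at 6.22 with oxamate, whereas MXD3 and MXI1 together went from 9.42 to 26.1 and 25.0 FPKM. The most abundant MXD mRNA was MXD4 in parental cells, with 40.1% of the sum, and MXD3 in HepG2/metR, with 55.2%, and in the oxamate-treated library, with 43.4%. MXD1 went from 20.0% to 3.35% and 3.54%, and MXI1 from 15.5% to 32.1% and 36.7%. The order of levels within the network therefore changed below MYC and MAX. In HepG2/wild it ran MXD4, MGA, MXD3, MXD1, MNT and MXI1. In HepG2/metR it ran MXD3, MXI1, MNT, MGA, MXD4 and MXD1, and with oxamate MXD3, MXI1, MGA, MNT, MXD4 and MXD1. With 1 library per condition there is no spread to say which neighbours in this order differ.

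Oxamate gave smaller changes in the network. At the 1.5-fold threshold 3.82% of genes kept were lower and 4.3% higher, or 8.12% in either direction, and of the 8 network genes MYC was lower and MXD4 higher. MXD4 had a log2 change of 0.68, a 1.82-fold rise on the FPKM scale, to a level that stayed below that of HepG2/wild. The rise of MXD4 passed the threshold under all 7 other pseudocounts, filters and scalings tried, from 0.68 to 0.87. The remaining MXD genes did not pass, with log2 changes of 0.07 for MXD1, 0.23 for MXI1 and -0.26 for MXD3. The HepG2/metR library serves in each comparison, so the lower MXD4 value there enters both of its changes. At 2-fold no network gene passed with oxamate, where 0.541% of genes kept were higher and 0.524% lower, or 1.06% in either direction. Fewer cells expressing a gene and less of its mRNA per cell cannot be told apart in these bulk libraries.

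MNT and MGA, the repressors outside the MXD family, passed no threshold. MNT, which is expressed in most growing cells and opposes MYC there, was listed at 4.21 FPKM in HepG2/wild, 5.46 in HepG2/metR and 5.47 with oxamate. Its log2 changes were 0.31 and 0.00. MGA was listed at 6.05, 5.42 and 6.75 FPKM, with log2 changes of -0.13 and 0.27. Both were thus within a narrow band of levels in these libraries. MYC mRNA was 2.34 times the sum of MXD, MNT and MGA mRNA in parental cells, 1.83 times in HepG2/metR cells and 1.07 times with oxamate. Over the 8 genes the median absolute log2 change was 0.75 in HepG2/metR and 0.27 with oxamate, against 0.65 and 0.21 over all genes kept.

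**Figure D2:**
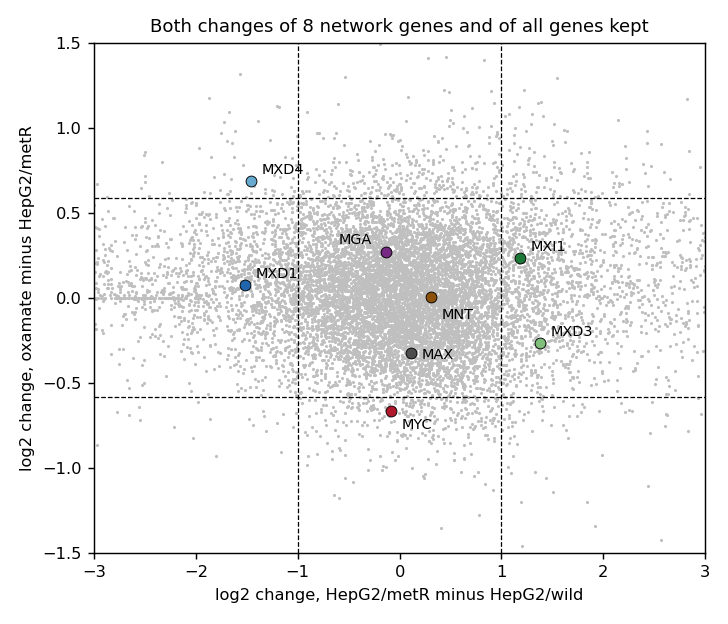
Each point is a gene kept, placed by its log2 change from HepG2/wild to HepG2/metR (x axis) and from HepG2/metR to oxamate (y axis), with the network genes coloured and named; dashed lines mark 2-fold and 1.5-fold, and 971 genes lie outside the axes. MXD1 and MXD4 lie left of the 2-fold line, MXI1 and MXD3 right of it, MYC lies below the lower line (-0.67) and MXD4 above the upper line (0.68).

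Genes that MYC is known to activate were lower with oxamate. A list of 65 such genes, mostly of ribosome assembly, nucleotide and polyamine synthesis, was written from general knowledge. Earlier results of these data were known when it was written, so the list is not independent of these values. All 65 were kept. With oxamate 63 of the 65 had a negative log2 change, against 45.6% of all genes kept, and 12 of 65 (18.5%) were at least 1.5-fold lower, against 3.82% of all genes kept. None was 1.5-fold higher. The median log2 change of the list was -0.36, and 0.02 over all genes kept. The largest falls were in NOP56, a core protein of snoRNPs, ODC1, the first enzyme of polyamine synthesis, and DCTPP1, which degrades dCTP. NOP56 was listed at 306 FPKM in HepG2/wild, 193 in HepG2/metR and 99.9 with oxamate, and its log2 change with oxamate was -0.95. ODC1 was listed at 231, 103 and 54.2 FPKM, with a change of -0.91. DCTPP1 was listed at 83.4, 48.0 and 26.9 FPKM, with a change of -0.81. These genes were named for having the largest falls with oxamate. In HepG2/metR against HepG2/wild NOP56, ODC1 and DCTPP1 had log2 changes of -0.66, -1.16 and -0.78, where MYC was at -0.09.

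The other 9 genes past the threshold were MRTO4, DKC1, CDK4, PA2G4, NCL, NOLC1, PHB, SRM and UNG, with log2 changes from -0.73 to -0.59. NCL, which encodes the nucleolar protein nucleolin, was listed at 970, 704 and 451 FPKM, and the cyclin-dependent kinase gene CDK4 at 93.3, 102 and 63.1. The exceptions to the negative sign were NDUFAF4 at 0.04 and UTP20 at 0.06, both named after their values had been seen. When each library was scaled to the same total, 3 of the 65 genes were at least 1.5-fold lower and the median was -0.20, which is -0.36 relative to the median of all genes under that scaling. With a 2-fold threshold none was lower.

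In HepG2/metR cells the same list had no common direction. Of the 65 genes 34 had a positive and 31 a negative log2 change, 4 were at least 2-fold higher and 6 at least 2-fold lower, shares of 6.15% and 9.23% against 16.6% and 17.6% of all genes kept. The median was 0.04. The largest changes were in MPHOSPH10, a component of the small ribosomal subunit processome, at -1.88, the nuclear import gene IPO4 at -1.86 and the nucleoside transporter gene SLC29A2 at 1.67. SLC29A2 was listed at 0.337, 3.27 and 2.05 FPKM. MYC itself was nearly level in this comparison, as given above.

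Of the 12 genes past the threshold with oxamate 10 had a RefSeq window, and 5 of these held CACGTG upstream of the start. The E-boxes of these 5 genes are shown with up to 22 bases on each side, since they are the elements a MYC and MAX dimer is known to read. The capitals mark CACGTG.
ODC1, chr2:10448014-10448063, minus strand: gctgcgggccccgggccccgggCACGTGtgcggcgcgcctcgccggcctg
DCTPP1, chr16:30429801-30429831, minus strand: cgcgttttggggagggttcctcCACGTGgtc
CDK4, chr12:57752499-57752548, minus strand: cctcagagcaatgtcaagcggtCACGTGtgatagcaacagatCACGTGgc
SRM, chr1:11060190-11060239, minus strand: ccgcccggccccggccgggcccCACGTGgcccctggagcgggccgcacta
UNG, chr12:109097922-109097967, plus strand: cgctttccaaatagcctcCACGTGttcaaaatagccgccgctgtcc

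The E-box lies 29 bases before the start of ODC1, 9 bases before that of DCTPP1 and 199 before that of SRM, counted from its first base. CDK4 has 3 and UNG has 2 in the 250 bases. Over the whole list 19 of the 54 genes with a window (35.2%) held CACGTG, against 11.3% of the expressed genes with a window. Most lists described below were also above that share. It was 28.6% for MYC stability regulators, 25.0% for MYC-repressed genes, 23.1% for co-activators and 21.4% for S-phase genes. For MGA partners it was 15.4% and for SIN3-HDAC genes 5.88%. With oxamate the MYC-activated genes with and without CACGTG had the same median log2 change, -0.36.

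Genes of S phase, a set of 18 with 0 genes in common with the MYC list, fell further with oxamate. The lack of shared genes follows from how the lists were chosen. It does not make the S-phase genes independent of MYC, which was not tested. All 18 had a negative log2 change, against 45.6% of all genes kept, and the median was -0.85. Of the 18, 14 (77.8%) were at least 1.5-fold lower, against 3.82% of all genes kept. This list too was chosen with earlier results of these data known. The largest changes were -1.35 for RRM2, a subunit of ribonucleotide reductase, -1.16 for GINS2 and -1.06 for CDC45, both parts of the replicative helicase. RRM2 was listed at 113 FPKM in HepG2/wild, 149.6 in HepG2/metR and 58.0 with oxamate. In the comparison of HepG2/metR with HepG2/wild 2 of the 18 (11.1%) passed 2-fold upward, namely MCM6 at 1.12 and CCNE2 at 1.38. None was 2-fold lower, and PCNA was at -0.73. Among all genes kept 16.6% were higher and 17.6% lower at 2-fold. The part of a lower share of cycling cells in the lower MYC and MYC-activated mRNA was not tested.

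**Figure D3:**
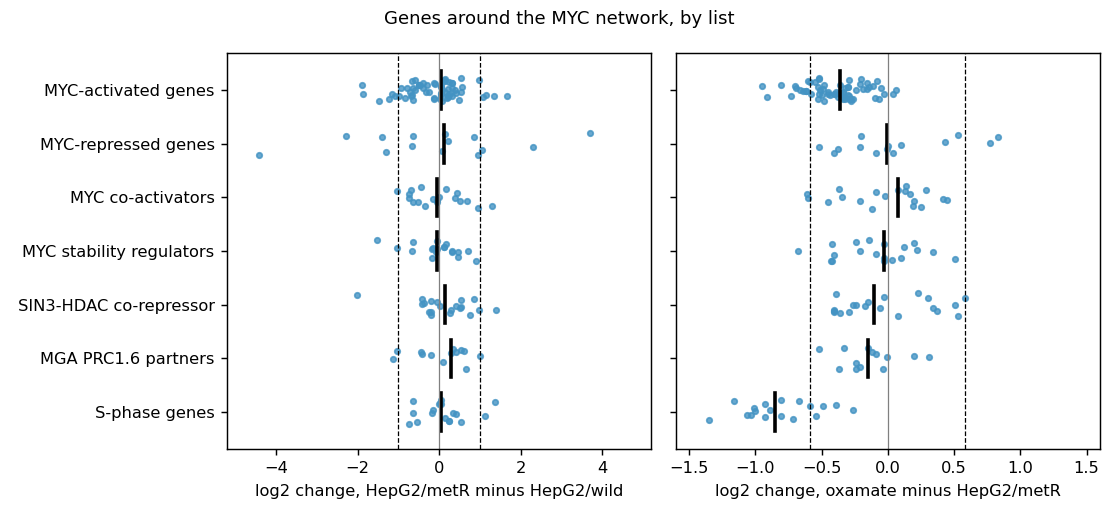
Each point is a gene of a list, placed by its log2 change from HepG2/wild to HepG2/metR (left, x axis) or from HepG2/metR to oxamate (right, x axis); vertical bars are list medians, dashed lines the 2-fold and 1.5-fold thresholds, and the vertical scatter is only for legibility. With oxamate the MYC-activated genes have a median of -0.36 and the S-phase genes of -0.85, while in the left panel their medians are 0.04 and 0.06.

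Of 19 genes listed as co-activators that MYC recruits, 1 passed 2-fold upward in HepG2/metR, RUVBL1, and 1 downward, SMARCB1. Among all genes kept 16.6% and 17.6% did, which are also the shares to set beside the counts of the lists that follow. The list includes ZBTB17, the gene of MIZ1, a partner of MYC in repression, whose log2 changes of 0.40 and 0.29 passed no threshold. In HepG2/metR the log2 changes of the 19 genes ran from -1.02 to 1.29 with a median of -0.06, 7 positive and 12 negative. RUVBL1 and RUVBL2 are partner ATPases of the TIP60 and INO80 complexes. RUVBL1 was listed at 50.5, 125 and 90.9 FPKM, with log2 changes of 1.29 and -0.45. RUVBL2 was listed at 74.0, 145 and 95.4 FPKM, with changes of 0.96 and -0.60. The level of both genes was highest in HepG2/metR, but only RUVBL2 passed the threshold with oxamate. ACTL6A, an actin-related protein of several remodelling complexes, was the other gene past it, at -0.61. SMARCB1, a core SWI/SNF subunit, was listed at 52.6, 25.5 and 25.2 FPKM. With oxamate 2 of the 19 were thus lower and none higher, and the median was 0.08. Among all genes kept 3.82% were lower and 4.3% higher, shares to set beside the oxamate counts of the lists that follow.

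Regulators of MYC protein stability were also followed, since MYC protein is short-lived and was not measured here. Of 20 genes 19 were kept. In HepG2/metR 0 of them passed 2-fold upward and 2 passed it downward, the deubiquitinase gene USP7 at -1.53 and the mitotic kinase gene PLK1 at -1.02. KIAA1524, the symbol used here for CIP2A, an inhibitor of the phosphatase that marks MYC for decay, was at 0.91. With oxamate PLK1 alone of the 19 passed, at -0.68, where 3.82% of all genes kept were lower. It was listed at 102, 49.9 and 30.8 FPKM. FBXW7, the ubiquitin ligase subunit that targets MYC, was listed at 6.55, 8.404 and 12.4 FPKM, and its log2 change of 0.51 with oxamate did not pass. SET, another phosphatase inhibitor, was at -0.43. The list medians were -0.05 in HepG2/metR and -0.03 with oxamate.

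The SIN3-HDAC co-repressor that MXD proteins and MNT bring to DNA was expressed throughout. All 20 genes were kept. In HepG2/metR 1 was at least 2-fold higher, the histone chaperone gene RBBP7 at 1.39, and 1 lower, the complex member BRMS1L at -2.02. RBBP7 was listed at 67.2, 178 and 134 FPKM, and BRMS1L at 25.3, 5.48 and 6.97. SIN3A, the scaffold, was listed at 8.79, 15.7 and 12.7 FPKM, named after its values had been seen. With oxamate none passed, and the largest changes were 0.58 for SAP30L, just short of the threshold, 0.53 for SIN3B and 0.51 for SUDS3. SAP30L did pass with a pseudocount of 0.1, with none, and under upper-quartile or total scaling. The list medians were 0.15 and -0.11.

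Partners of MGA in its Polycomb complex gave 1 gene at least 2-fold higher and 2 lower of 13 in HepG2/metR. TFDP1, the dimer partner of E2F proteins, was at the threshold with a log2 change of 1.0 and was not past it with median-of-ratios size factors. E2F6, a repressive E2F, was listed at 19.2, 8.21 and 7.47 FPKM with a change of -1.13. L3MBTL2, a chromatin reader, was listed at 22.1, 10.4 and 8.82 FPKM with a change of -1.02. Both fell while MGA itself was at -0.13. With oxamate none of the 13 passed, and 11 had a negative change, against 45.6% of all genes kept. CBX3, WDR5 and TFDP1 were at -0.52, -0.37 and -0.33, and CBX3 is also on the list of MYC-activated genes. The list medians were 0.29 and -0.15.

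MLX, which pairs with MXD1, MXD4 and MNT as well as with the glucose sensors MLXIP and MLXIPL, links the network to metabolism. MLX was listed at 31.1, 41.2 and 39.8 FPKM and MLXIP, known as MondoA, at 6.84, 7.28 and 7.41. Neither passed a threshold. MLXIPL, known as ChREBP, is a liver transcription factor and was listed at 31.4, 0.0336 and 0.0438 FPKM, a log2 change of -4.97 in HepG2/metR. It fell with the hepatocyte markers given above, and the part of that loss in its value was not tested.

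**Figure D4:**
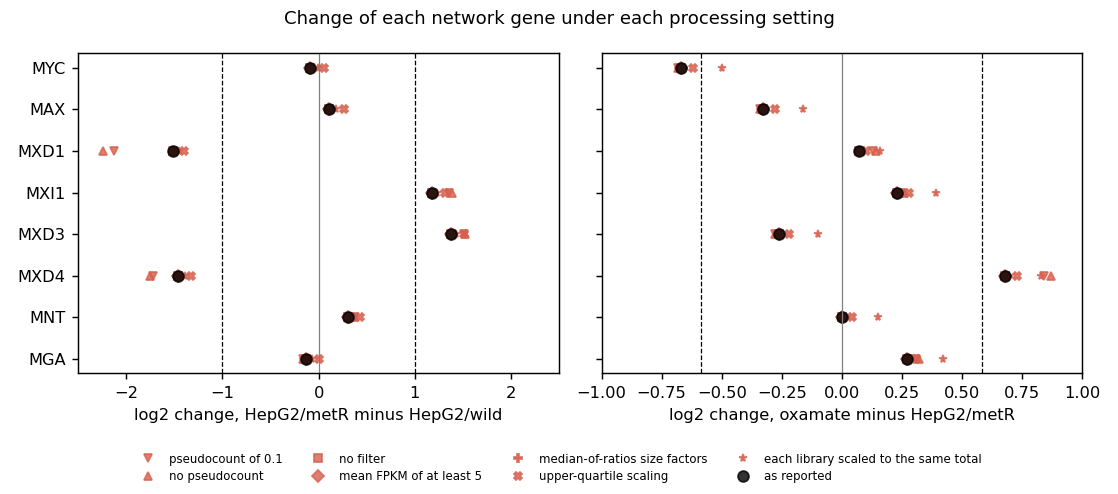
The log2 change of each network gene in HepG2/metR against HepG2/wild (left) and with oxamate (right) under the values as reported (black) and 7 other settings (red, by marker); dashed lines are 2-fold and 1.5-fold. The changes of the 4 MXD genes in the left panel and of MXD4 in the right panel stay past their line wherever they have a value (MXD1 has none with a minimum mean of 5 FPKM), and MYC with oxamate moves inside the line (-0.50) when libraries are scaled to the same total.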

How the data were processed

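Total RNA was extracted with Trizol, made into Illumina libraries and sequenced on a NextSeq instrument, with 1 library for each of HepG2/wild, HepG2/metR and HepG2/metR+oxamate. The authors deposited log2 values, 1 per gene symbol and library, of the form log2(FPKM + 1). The unit was inferred: after back-transformation 100% of values above 1 were numbers of at most 6 significant digits. The submitters' processing notes name STAR 2.5.1b, FastQC 0.11.5, Cufflinks 2.2.1 and the build hg19, and the annotation, strand setting and filters are not given in the sources used here. No coordinates of hg19 are printed.

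Log2 changes are differences of the deposited values, which understates changes of low genes because of the pseudocount of 1. Genes with a mean of at least 1 FPKM were kept. Calls use 2-fold for HepG2/metR against HepG2/wild and 1.5-fold for oxamate, after the study's methods. In each file 28 symbols had been turned into dates; these stay in all-gene counts without a name. Read depth is unknown, so no counting interval is given. The members and gene lists were chosen with earlier results of these data known. Named genes are the 9 members, the genes beside them, the 3 genes of each list that changed most in each comparison, and the 5 genes nearest to MYC in both changes at a mean of at least 10 FPKM; others named say so or are the few a count refers to, and some genes under this rule are not reported here. Promoter windows are RefSeq sequences of GRCh38.p14, matched by symbol. The calculation was run on simulated data with low noise and planted changes well past the thresholds. That checks the code and does not show how reliable calls near a threshold or at low levels are. Other settings tried were no pseudocount or 0.1, a minimum mean of 5 FPKM or none, median-of-ratios, upper-quartile or total scaling, and the other fold threshold. Python 3.11, numpy 2.4.6, pandas 2.3.3 and matplotlib 3.10.9 were used.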

Additional observations from a re-analysis of the deposited data

How the results depend on the processing

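No paired analysis was possible because each condition has 1 library. Of the 510 values recomputed under the alternatives, 433 stayed on the same side of their threshold, within 1.5 times a count or within 0.1 of a median, and 77 did not; the cause was not tested beyond what each setting does by construction. No value past a threshold changed sign. MYC in HepG2/metR, which was not past it, went from -0.09 to 0.06 under upper-quartile scaling. Upper-quartile scaling moved the median of all genes in HepG2/metR from 0.02 to 0.15, and total scaling moved it with oxamate from 0.02 to 0.17. Depth in reads is unknown, which limits MXD1 and other genes near 1 FPKM most.

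Total scaling ended the MYC call with oxamate (-0.50), leaving 0 network genes lower, with a network median of 0.16. It gave 3 MYC-activated genes lower and a median of -0.20, an S-phase median of -0.68, and 1184 genes higher and 192 lower. For co-activators it gave 2 higher and 0 lower with a median of 0.23, for stability regulators 1 and 0 with 0.13, for SIN3-HDAC genes 3 higher with 0.05, for MGA partners a median of 0.01, and for MYC-repressed genes 4 higher with 0.10. In HepG2/metR it gave 2 higher and 0 lower co-activators, 1 lower stability regulator, 2 higher SIN3-HDAC genes and 1 lower MGA partner.

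Upper-quartile scaling in HepG2/metR gave medians of 0.16 for the network, 0.09 for co-activators (2 higher, 0 lower), 0.10 for stability regulators (1 higher, 1 lower), 0.30 for SIN3-HDAC genes (2 higher), 0.44 for MGA partners (0 lower), 0.19 for MYC-activated, 0.23 for MYC-repressed (5 higher) and 0.21 for S-phase genes. With oxamate it gave 0 lower co-activators and 1 higher SIN3-HDAC gene. Median-of-ratios factors left 0 MGA partners higher.

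A pseudocount of 0.1 gave 3 SIN3-HDAC genes higher in HepG2/metR, 1 higher with oxamate and 1018 genes higher with oxamate, and no pseudocount gave 3, 1 and 1109, with 2 MYC-repressed genes lower with oxamate. A mean of at least 5 FPKM removed MXD1, leaving 1 network gene lower in HepG2/metR. It also gave 1249 genes higher and 1428 lower there, 271 higher with oxamate, SIN3-HDAC and MYC-repressed medians of 0.03 and -0.21 in HepG2/metR, and with oxamate 1 MYC-repressed gene higher and a median of -0.15.

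At 1.5-fold in HepG2/metR 3262 genes were higher and 3301 lower. Counts were 3 higher and 5 lower for co-activators, 2 and 4 for stability regulators, 4 higher for SIN3-HDAC genes, 3 higher for MGA partners, 18 lower for MYC-activated, 5 higher for MYC-repressed and 3 lower for S-phase genes. At 2-fold with oxamate 66 genes were higher and 64 lower, with 0 network genes in either direction, 5 S-phase genes lower, and 0 lower co-activators, stability regulators and MYC-activated genes and 0 higher MYC-repressed genes.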

Other observations

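Genes that MYC is known to hold down with its partner MIZ1 or otherwise passed the threshold in both directions in HepG2/metR. Of 16 genes 14 were kept, and 3 were at least 2-fold higher and 4 lower, against 16.6% and 17.6% of all genes kept, with a median log2 change of 0.11. THBS1, an extracellular matrix glycoprotein gene, was listed at 57.4, 761.6 and 1025 FPKM, in the order HepG2/wild, HepG2/metR and oxamate, and the stress gene GADD45B at 5.69, 32.2 and 24.0, while the NDRG family gene NDRG2 was listed at 31.8, 0.534 and 0.327. CDKN2B, a cyclin-dependent kinase inhibitor gene named after its values had been seen, was listed at 3.90 FPKM in parental cells and at 0 in both HepG2/metR libraries. With oxamate PDGFRB, a growth factor receptor gene, and BTG2, an antiproliferative gene, were at least 1.5-fold higher, at 0.83 and 0.77, NDRG1 was at 0.53, none was lower, against 4.3% higher and 3.82% lower of all genes kept, and the list median was 0.00.

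PVT1, the noncoding gene next to MYC, was listed at 2.98, 10.96 and 12.3 FPKM and had log2 changes of 1.59 and 0.16, where MYC had -0.09 and -0.67. MAPKBP1, beside MGA, was listed at 1.93, 5.75 and 8.31 FPKM and had changes of 1.20 and 0.46, where MGA had -0.13 and 0.27. CASC11 and POU5F1B near MYC and MYCNOS, which overlaps MYCN, were listed at 0 in every library. FUT8 near MAX was at -0.67 in HepG2/metR. Of the 9 neighbours kept, PVT1 and MAPKBP1 (22.2%) passed 2-fold upward between HepG2/wild and HepG2/metR, and none passed it downward. The shares of all genes kept were 16.6% upward and 17.6% downward. With oxamate only PRELID1 of the 9 (11.1%) passed the 1.5-fold threshold, at -0.68, next to MXD3 at -0.26. Among all genes kept 3.82% were lower and 4.3% higher with oxamate. CHURC1-FNTB, a readthrough gene overlapping MAX, was not in that list and was looked up after the values had been seen. It also passed the threshold with oxamate, at -0.62. The other neighbours looked up, CHURC1, SMNDC1, RAB24, SNRNP27, METTL16 and ZFYVE28, passed no threshold or were not kept.

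The 5 genes whose pair of log2 changes lay nearest to that of MYC, of 6552 with a mean of at least 10 FPKM, were DTYMK, ANP32B, EIF6, SNRPG and EMG1, at Euclidean distances from 0.0189 to 0.0342 on the log2 scale over 2 comparisons that share a library. DTYMK, a thymidylate kinase gene, was listed at 67.5, 64.4 and 40.3 FPKM. EIF6 and EMG1, both with roles in ribosome assembly, were listed at 348, 325 and 207 FPKM and at 91.3, 84.4 and 51.9 FPKM.

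Within the list of MYC-activated genes the 19 genes with CACGTG in their 250-base window had a median log2 change of -0.36 with oxamate, and the 35 with a window but no CACGTG also had -0.36, with 5 genes past the threshold in each group. In HepG2/metR against HepG2/wild the medians were -0.60 and 0.05, with ranges from -1.86 to 1.36 and from -1.23 to 1.15. This split was made after the list values had been seen, and it was not tested.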
